A study of Rattus norvegicus with 40 samples.

Results

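The genes described are those of the proteasome subunits, chosen by name from a list of 38 rat genes that holds the alpha and beta rings of the core, the immunoproteasome subunits, the regulatory particle and the PA28 activators. A gene was taken where a probe set of the array carried its symbol and no other, and where several did, the probe set with the highest mean log2(signal + 16) over all 40 arrays stood for it. In this way 36 of the 38 genes were measured, of 14217 genes and 31042 probe sets in all. Psmb6 and Psme3 lay only on probe sets that carry several symbols and have no value here.

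Expression was measured in whole dorsal root ganglia (DRGs), the clusters of sensory nerve cell bodies beside the spinal cord, of male Sprague-Dawley rats 4 weeks after surgery. In the SNL cohort the left L5 spinal nerve had been tightly ligated, so that the ipsilateral L5 DRG held injured neurons and the ipsilateral L4 DRG lay beside it with its own nerve uncut. In the sham cohort the same operation was done without a ligature. Each cohort had 5 rats, and each rat gave its ipsilateral and contralateral L4 and L5 DRGs, 1 array per DRG with no pooling, which makes 8 groups of 5 arrays. The contralateral DRGs come from operated animals, and no unoperated rats were part of the comparison.

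The proteasome is the barrel-shaped protease that degrades proteins tagged with ubiquitin. Its core is a stack of rings of alpha subunits, which form the gate, and of beta subunits, which hold the protease sites, and its regulatory particle has a base, with a ring of ATPases that unfold the substrate, and a lid, which removes the ubiquitin. Cells that meet interferon replace the catalytic beta subunits by the immunoproteasome subunits Psmb8, Psmb9 and Psmb10, and may cap the core with PA28, a ring of Psme1 and Psme2 that takes the place of the regulatory particle. Sensory neurons depend on the proteasome for protein turnover along the axon, and immune cells use the immunoproteasome to make peptides for class I antigen presentation.

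Signals are MAS 5 intensities in arbitrary units, and differences between sides are given as the log2 ratio of ipsilateral over contralateral on log2(signal + 16), with the standard error (SE) and the adjusted p of a limma fit over all 31042 probe sets. A gene was called higher or lower at an adjusted p under 0.05. The members were among the brighter genes: their median level was 8.92 on the log2 scale, against 5.77 over all probe sets, none was under that median, and 29 reached 8 or more. Ipsilateral arrays had the higher median signals throughout (52.7 to 55.6 against 48.4 to 50.5 in SNL L4, 42.1 to 43.8 against 36.5 to 37.7 in SNL L5, 36.1 to 38.9 against 30.7 to 32.7 in sham L4, and 34.9 to 36.6 against 28.6 to 29.7 in sham L5). Each difference was therefore computed again with quantile normalization, and again with all array medians set equal. The titles of the SNL L5 arrays place them in another array series than the other 30, so the levels of SNL L5 and of the other groups cannot be told apart from the array series. Each comparison of sides lies within 1 series. There the titles number all ipsilateral arrays of a comparison before its contralateral ones, so side and title order cannot be told apart. In RNA of whole ganglia, fewer cells of a type and less RNA per cell cannot be told apart.

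Of the 36 members, 5 were higher and 11 lower in ipsilateral than in contralateral SNL L4 DRGs, where 19.1% of all probe sets were called (10.1% higher and 9.01% lower). In SNL L5 DRGs 6 were higher and 20 lower, where 47.2% of all probe sets were called (30.3% higher and 16.8% lower). In sham rats 4 were higher and 8 lower at L4, where 27.1% were called (17.3% higher and 9.85% lower), and 7 were higher and 10 lower at L5, where 50.3% were called (31.1% higher and 19.3% lower). Bright probe sets were called more often than dim ones, and among the 3910 with a mean of 8 or more the lower calls made up 36% in SNL L4, 45.4% in SNL L5 and, in sham rats, 20.9% at L4 and 23.1% at L5. The members' median difference was -0.06 in SNL L4 (0.07 over all probe sets), -0.21 in SNL L5 (0.12) and, in sham rats, -0.13 at L4 (0.06) and -0.08 at L5 (0.06).

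The split of the calls moved with the scaling. After quantile normalization 8 members were higher and 9 lower in SNL L4 (8.26% and 9.69% of all probe sets), and 7 and 17 in SNL L5 (21.3% and 19.8%). The sham counts were then 1 higher and 10 lower at L4 (8.97% and 8.91%) and 1 and 8 at L5 (16.9% and 21.5%). Among the probe sets with a mean of 8 or more, 20% were then higher and 29.4% lower in SNL L4, and 34.9% and 40.2% in SNL L5. In sham rats these shares were 14.1% and 15.3% at L4 and 19.7% and 20% at L5. Equal array medians moved the median difference of all probe sets to 0.00 in SNL L5 and, in sham rats, to -0.07 at L4 and -0.11 at L5. The counts were then 1 higher and 14 lower in SNL L4 (5.11% and 13.5% of all probe sets), and 4 and 28 in SNL L5 (16.8% and 24.4%). In sham rats they were 0 and 26 at L4 (10.2% and 27.5%) and 1 and 31 at L5 (19.6% and 41.5%). The sides did not overlap on any array for 12 members in SNL L4 (15% of all probe sets), 20 in SNL L5 (33.9%) and, in sham rats, 9 at L4 (18.2%) and 11 at L5 (34.2%).

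**Figure D1:**
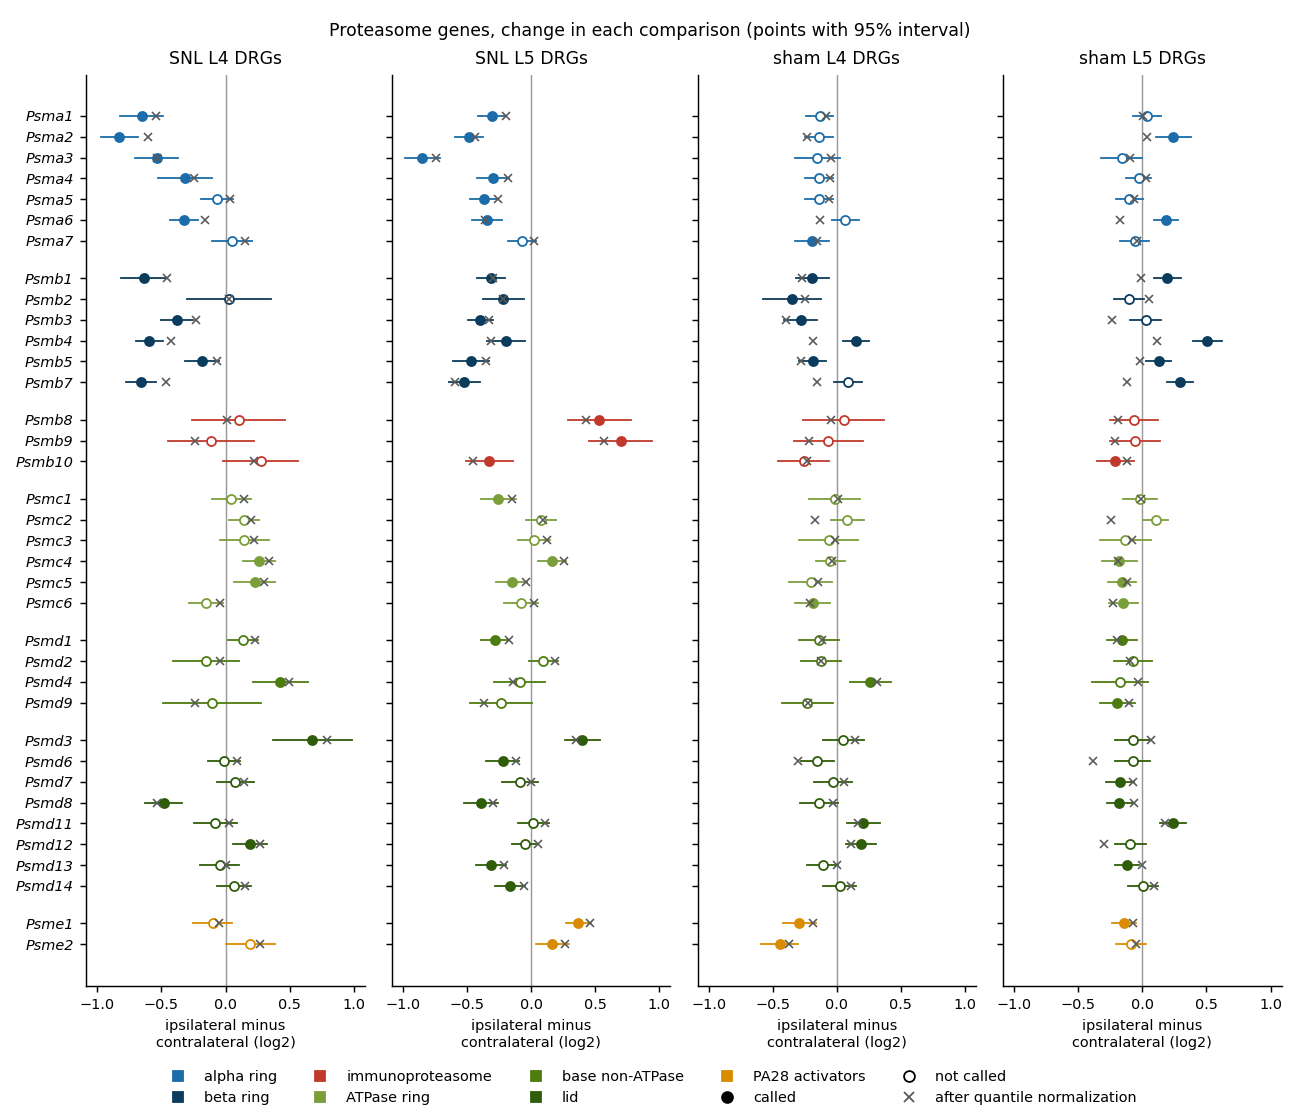
Log2 ratio of ipsilateral over contralateral signal for each of the 36 proteasome genes in SNL L4, SNL L5, sham L4 and sham L5 DRGs, 5 arrays per side. Bars are confidence intervals of the limma fit, which are wider than the SE, and filled points are calls at an adjusted p under 0.05. The alpha and beta ring genes lie mostly left of 0 in both SNL panels, with 10 of 13 called lower in SNL L4 and 12 of 13 in SNL L5, while Psmb8, Psmb9, Psme1 and Psme2 lie right of 0 in SNL L5.

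The 13 constitutive core genes were mostly lower on the side of the ligation and the 18 genes of the regulatory particle were mixed. In SNL L4, 10 of the 13 core genes fell, none rose, and their median difference was -0.38. In SNL L5, 12 fell, none rose, and the median was -0.35. Of the regulatory particle genes, 5 rose and 1 fell in SNL L4 (median 0.07), and 2 rose and 7 fell in SNL L5 (median -0.09). After quantile normalization 8 core genes were lower in SNL L4 (median -0.24) and 12 in SNL L5 (median -0.31), still with none higher, and 7 regulatory particle genes were higher and 1 lower in SNL L4 and 3 higher and 4 lower in SNL L5. With equal array medians 11 and 13 core genes were lower, and the regulatory particle had 1 higher and 2 lower in SNL L4 and 1 higher and 14 lower in SNL L5. The 5 rises of the regulatory particle in SNL L4 became 3 without the array of ipsilateral rat 4 or 9 or of contralateral rat 8, 18 or 48. In sham rats the counts of the core turned on the scaling. As deposited 1 rose and 5 fell at L4 (median -0.14), and 6 rose and none fell at L5 (median 0.03). After quantile normalization none was higher in either, with 6 lower at L4 (median -0.16) and 2 at L5 (median -0.02), and with equal array medians 0 were higher and 10 lower at L4 (median -0.37) and 1 higher and 9 lower at L5 (median -0.28).

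Other measures moved with the side. The 3′ to 5′ log2 ratio of the GAPDH control probe sets, a sign of RNA quality, was 2.35 ± 0.12 on ipsilateral and 1.40 ± 0.06 on contralateral SNL L4 arrays, and 1.61 ± 0.10 and 0.97 ± 0.08 on SNL L5 arrays (SD, n = 5 each). It was 1.72 ± 0.08 and 1.29 ± 0.12 at sham L4, and 1.11 ± 0.11 and 1.01 ± 0.09 at sham L5. The summed signal of 10 sensory neuron markers was 27910 to 31210 on ipsilateral and 24200 to 26060 on contralateral SNL L4 arrays (5 markers higher, 2 lower), and 13940 to 15920 and 16660 to 20750 on SNL L5 arrays (2 higher, 7 lower). In sham rats it was 23350 to 25210 and 14760 to 17740 at L4 (7 higher, 0 lower) and 17110 to 21380 and 11930 to 13150 at L5 (7 higher, 1 lower). The counts of the neuron markers moved with the scaling. After quantile normalization 4 were higher and 4 lower in SNL L4 (median -0.06, against 0.27 as deposited), 2 and 8 in SNL L5, 2 and 0 at sham L4 and 1 and 2 at sham L5.

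Markers of other cells also moved beside the core. The 6 fibroblast markers summed to 6841 to 7197 ipsilaterally and 4166 to 4738 contralaterally in SNL L4 (5 higher), and to 9668 to 11080 and 3378 to 3635 in SNL L5 (6 higher). Schwann cell markers were higher for 2 of 4 in SNL L4 and for 4 of 4 in SNL L5 (2 with equal array medians), with sums of 7135 to 9419 and 5497 to 7360 in SNL L5. Under each of the other scalings 1 was higher and 1 lower in SNL L4. In sham rats 2 were higher and 1 lower at L4 (sums of 7401 to 8475 and 4963 to 6308) and 2 higher and 2 lower at L5 (5278 to 6185 and 3897 to 4180). After quantile normalization 0 were higher in sham rats, with 1 lower at L4 and 2 at L5. Blood markers were lower on the ipsilateral than on the contralateral side in SNL L4. This held for 2 of 3 neutrophil markers (sums of 73.2 to 135.7 ipsilaterally and 792.5 to 850.4 contralaterally) and 1 of 3 red blood cell markers (832.9 to 1088 and 2024 to 2333). The neutrophil sums were 178.9 to 233.1 ipsilaterally and 248.9 to 274.9 contralaterally at sham L4 (1 marker higher, 1 lower). At sham L5 they were 184.9 to 197.5 and 93.3 to 112.3 (2 higher, 0 lower). In sham rats no fibroblast marker was higher, with 2 of 6 lower at L4 and 3 at L5. The part of these measures in the core differences was not tested.

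Promoters of core genes that fell in both SNL comparisons are shown because genes of a shared complex are often read together from like promoters. RefSeq windows of the GRCr8 assembly, from 250 bases before to 50 bases after the gene start, were found for 32 of the 36 members. The letters CCAAT, the box bound by the factor NF-Y in many housekeeping promoters, were searched on both strands and lay in 9 of 12 core windows (75%), in 6 of 15 regulatory particle windows (40%), and in 37.7% of all 27457 windows. It was not found in the windows of Psma6, Psmb4 and Psmb5. The following lines show 4 of the core genes with a box, which is in capitals, and are not the 4 that fell most. The windows of Psma3, Psmb3 and Psmb7 hold further boxes. That of Psma3 on the other strand, 104 bases before the gene start, lies in small letters within its line. The stretches are those of Psma2 (chr17:55260494-55260538, minus strand), Psma3 (chr6:95219637-95219681, plus strand), Psmb3 (chr10:83193702-83193746, plus strand) and Psmb7 (chr3:42827555-42827599, minus strand).
Psma2: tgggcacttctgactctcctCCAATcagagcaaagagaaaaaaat
Psma3: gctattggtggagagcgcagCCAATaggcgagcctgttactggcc
Psmb3: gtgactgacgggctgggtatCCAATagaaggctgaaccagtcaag
Psmb7: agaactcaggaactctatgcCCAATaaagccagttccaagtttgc

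Each of the boxes in capitals lies before the gene start. Between box and gene start lie 72 bases in Psma2, 87 in Psma3, 60 in Psmb3 and 104 in Psmb7. The letters TGACNNNGC are the antioxidant response element bound by Nfe2l1 and Nfe2l2, of which Nfe2l1 drives proteasome genes when the protease is blocked. Searched again on both strands, they lay in 3 of 12 core windows (25%), 6 of 32 members (18.8%) and 12.2% of all windows. The match in Psmb5 lies before the gene start, with 51 bases between them. Its stretch (chr15:32047411-32047459, minus strand) has the element in capitals.
Psmb5: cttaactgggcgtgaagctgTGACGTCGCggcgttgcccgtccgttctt
A match describes the letters of the window only.

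Of the 7 alpha ring genes, 5 fell in SNL L4 and 6 in SNL L5, and none rose in either. Their mean level over the genes was 8.82 ± 0.06 ipsilaterally and 9.20 ± 0.07 contralaterally in SNL L4 (log2, SD over 5 arrays), 9.04 ± 0.02 and 9.43 ± 0.05 in SNL L5, 9.05 ± 0.03 and 9.17 ± 0.03 in sham L4, and 9.28 ± 0.04 and 9.26 ± 0.02 in sham L5. In sham rats 1 of the 7 was lower at L4 and 2 were higher at L5 as deposited. After quantile normalization none was higher and 1 was lower in each, at L5 Psma6, one of those 2, and with equal array medians 6 were lower in each.

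Psma2, a subunit of the alpha ring, had the largest fall of any member in SNL L4. Its signals, in order of rat number (rats 4, 8, 9, 18 and 48), were 615, 759.6, 705, 592 and 600.5 on the ipsilateral arrays, against 1099, 1151, 1249, 1166 and 1184 on the contralateral arrays. All 5 ipsilateral arrays lay below all contralateral ones, and the gene fell by 0.83 ± 0.07 on the log2 scale (SE, adjusted p = 2.16e-07). In SNL L5 Psma2 read 857, 834, 873, 830.2 and 872 on the ipsilateral arrays, against 1229, 1309, 1186, 1165 and 1120 on the contralateral arrays. The sides again did not overlap, and the fall was 0.49 ± 0.05 on the log2 scale (SE, adjusted p = 4.85e-07). In sham rats (rats 1, 14, 17, 22 and 23) it read 893, 809.9, 863, 841 and 765 on the ipsilateral arrays, against 893, 932, 886, 935 and 943 on the contralateral arrays at L4. The sides overlapped there, with a difference of -0.14 ± 0.05 (SE, adjusted p = 0.056). At sham L5 it read 1054, 987, 947, 1143 and 1151 on the ipsilateral arrays, against 961, 867, 919, 899.6 and 808 on the contralateral arrays, and it rose by 0.24 ± 0.06 on the log2 scale (SE, adjusted p = 0.0059) with overlapping sides; that rise was 0.03 and not called after quantile normalization and -0.07 with equal array medians.

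Psma1, another alpha subunit, read 328, 378, 321, 374 and 279.8 on the ipsilateral arrays, against 488, 528, 518, 557 and 592 on the contralateral arrays in SNL L4. No ipsilateral array reached the lowest contralateral one, and the fall was 0.66 ± 0.08 on the log2 scale (SE, adjusted p = 1.32e-05); in SNL L5 it fell by 0.31 ± 0.05 on the log2 scale (SE, adjusted p = 0.000143). Psma3 had the largest fall of any member in SNL L5, where it read 225, 281, 234, 255 and 257 on the ipsilateral arrays, against 492, 412, 484, 448 and 483 on the contralateral arrays. The highest ipsilateral signal was 281 and the lowest contralateral one 412, a fall of 0.85 ± 0.07 on the log2 scale (SE, adjusted p = 9.69e-09). In SNL L4 Psma3 read 215, 209, 239, 257 and 239 on the ipsilateral arrays, against 347, 325, 331, 401 and 317 on the contralateral arrays, without overlap, and fell by 0.54 ± 0.08 on the log2 scale (SE, adjusted p = 8.9e-05). Of the remaining alpha genes, Psma6 fell by 0.32 ± 0.05 on the log2 scale (SE, adjusted p = 0.000229) in SNL L4 and 0.35 ± 0.06 on the log2 scale (SE, adjusted p = 7.36e-05) in SNL L5, and Psma5 by 0.37 ± 0.05 on the log2 scale (SE, adjusted p = 8.33e-06) in SNL L5. Psma4 fell by 0.30 ± 0.06 on the log2 scale (SE, adjusted p = 0.000413) in SNL L5 and by 0.32 ± 0.10 on the log2 scale (SE, adjusted p = 0.034) in SNL L4, where the call was lost without any 1 of 6 arrays (ipsilateral rats 4, 9 and 48 and contralateral rats 9, 18 and 48), with adjusted p-values up to 0.099 and differences of -0.39 to -0.26. Psma7 was not called in either SNL comparison, at 0.05 ± 0.07 (SE, adjusted p = 0.69) in SNL L4 and -0.07 ± 0.05 (SE, adjusted p = 0.28) in SNL L5.

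Of the 6 beta ring genes measured, 5 fell in SNL L4 and all 6 in SNL L5. The mean level over them was 9.17 ± 0.09 ipsilaterally and 9.57 ± 0.09 contralaterally in SNL L4, 9.55 ± 0.04 and 9.90 ± 0.06 in SNL L5, 9.53 ± 0.05 and 9.66 ± 0.08 in sham L4, and 9.79 ± 0.02 and 9.61 ± 0.03 in sham L5 (log2, SD, n = 5). The 6 genes had 1 rise and 4 falls in sham L4 and 4 rises and no fall in sham L5. None of those 4 rises was called after quantile normalization, where 1 beta gene was lower, and with equal array medians 1 was higher and 3 were lower.

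Psmb7 encodes the beta subunit with trypsin-like activity. It read 1007, 965, 987, 884 and 868 on the ipsilateral arrays, against 1511, 1505, 1509, 1438 and 1514 on the contralateral arrays in SNL L4. The sides were far apart and each was narrow, and the fall was 0.66 ± 0.05 on the log2 scale (SE, adjusted p = 1.83e-07). In SNL L5 Psmb7 read 1203, 1175, 1118, 1221 and 1128 on the ipsilateral arrays, against 1731, 1882, 1591, 1694 and 1555 on the contralateral arrays. It fell there by 0.52 ± 0.06 on the log2 scale (SE, adjusted p = 8.23e-07), again with no overlap. At sham L5 the order was the other way round, with 1471, 1380, 1429, 1548 and 1474 on the ipsilateral arrays, against 1148, 1190, 1137, 1267 and 1198 on the contralateral arrays. Psmb7 rose there by 0.29 ± 0.05 on the log2 scale (SE, adjusted p = 0.000158), and the difference was -0.12 after quantile normalization and -0.02 with equal array medians, so that its direction at sham L5 rests on the scaling. At sham L4 it read 1302, 1265, 1295, 1315 and 1321 on the ipsilateral arrays, against 1104, 1290, 1177, 1225 and 1316 on the contralateral arrays. Those sides overlapped, at 0.09 ± 0.05 (SE, adjusted p = 0.22) as deposited and -0.16, called lower, after quantile normalization.

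Psmb4, a structural beta subunit and the brightest member, also fell in both SNL comparisons and rose at sham L5 as deposited. It read 1064, 1127, 1038, 1002 and 1018 on the ipsilateral arrays, against 1570, 1583, 1653, 1519 and 1634 on the contralateral arrays in SNL L4. Every ipsilateral array was under every contralateral one, a fall of 0.59 ± 0.05 on the log2 scale (SE, adjusted p = 2.89e-07). In SNL L5 it read 1663, 1493, 1621, 1651 and 1599 on the ipsilateral arrays, against 1972, 2167, 1608, 1799 and 1712 on the contralateral arrays. These sides overlapped and the fall was 0.20 ± 0.07 on the log2 scale (SE, adjusted p = 0.031), a call that rested on single arrays: the call was lost without any 1 of 4 arrays (ipsilateral rats 8 and 48 and contralateral rats 4 and 8), with adjusted p-values up to 0.078 and differences of -0.25 to -0.14. At sham L5 Psmb4 read 1680, 1679, 1710, 1860 and 1812 on the ipsilateral arrays, against 1210, 1218, 1218, 1333 and 1147 on the contralateral arrays. All 5 ipsilateral arrays were higher and the gene rose by 0.51 ± 0.05 on the log2 scale (SE, adjusted p = 1.89e-06), against 0.12, not called, after quantile normalization. At sham L4 it read 1719, 1682, 1684, 1681 and 1697 on the ipsilateral arrays, against 1417, 1610, 1457, 1533 and 1609 on the contralateral arrays. It rose there by 0.15 ± 0.05 on the log2 scale (SE, adjusted p = 0.029), but was called lower, at -0.19, after quantile normalization, and the call was lost without any 1 of 5 arrays (ipsilateral rats 1, 22 and 23 and contralateral rats 17 and 22), with adjusted p-values up to 0.077 and differences of 0.12 to 0.17.

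Psmb5 carries the chymotrypsin-like activity that proteasome inhibitors block. It read 579, 567, 668, 665 and 699 on the ipsilateral arrays, against 920.1, 953, 891, 866 and 793 on the contralateral arrays in SNL L5. The ipsilateral arrays were all lower, a fall of 0.47 ± 0.07 on the log2 scale (SE, adjusted p = 1.57e-05). In SNL L4 it read 472, 489.5, 511, 463 and 465 on the ipsilateral arrays, against 499, 578, 562, 516 and 589 on the contralateral arrays. The sides overlapped and the fall of 0.18 ± 0.06 on the log2 scale (SE, adjusted p = 0.044) was marginal, since it was not called after quantile normalization (-0.07) or with the rat as a block, and the call was lost without any 1 of 7 arrays (ipsilateral rats 4, 8, 18 and 48 and contralateral rats 8, 9 and 48), with adjusted p-values up to 0.12 and differences of -0.22 to -0.16.

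The structural subunits Psmb3 and Psmb1 fell in both SNL comparisons. Psmb3 read 813, 788, 828, 811 and 825 on the ipsilateral arrays, against 1036, 1134, 1057, 1102 and 1056 on the contralateral arrays in SNL L5. The ipsilateral arrays lay within a narrow band below the contralateral ones, and the fall was 0.40 ± 0.05 on the log2 scale (SE, adjusted p = 1.66e-06); it was 0.38 ± 0.06 on the log2 scale (SE, adjusted p = 0.00016) in SNL L4. Psmb1 read 644, 620.5, 623, 552 and 484 on the ipsilateral arrays, against 918, 824, 1072, 816 and 953 on the contralateral arrays in SNL L4. The sides did not overlap, and it fell by 0.63 ± 0.08 on the log2 scale (SE, adjusted p = 3.35e-05), and by 0.31 ± 0.05 on the log2 scale (SE, adjusted p = 0.000112) in SNL L5. Psmb2, the dimmest beta ring gene, missed the threshold in SNL L4, at 0.03 ± 0.15 (SE, adjusted p = 0.93), and fell by 0.22 ± 0.08 on the log2 scale (SE, adjusted p = 0.028) in SNL L5, where the call was lost without any 1 of 5 arrays (ipsilateral rats 8, 9 and 18 and contralateral rats 18 and 48), with adjusted p-values up to 0.083 and differences of -0.27 to -0.18. In sham L4 Psmb2 read 134, 93.1, 160.5, 129 and 102 on the ipsilateral arrays, against 149.6, 166, 153, 163 and 169 on the contralateral arrays. Its sides overlapped, and it fell by 0.35 ± 0.11 on the log2 scale (SE, adjusted p = 0.022), where the call was lost without any 1 of 3 arrays (ipsilateral rats 14 and 23 and contralateral rat 23), with adjusted p-values up to 0.055 and differences of -0.44 to -0.27.

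**Figure D2:**
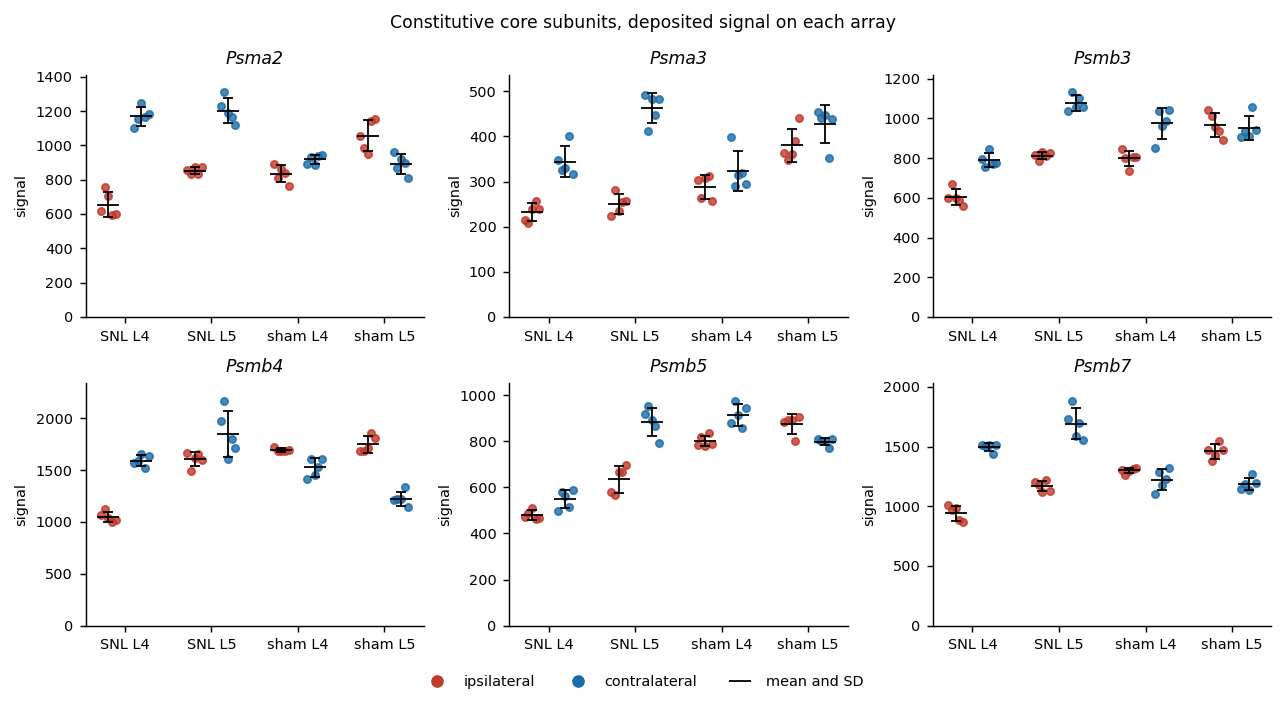
Signal of 6 core genes (Psma2, Psma3, Psmb3, Psmb4, Psmb5 and Psmb7) on each array, ipsilateral left of contralateral within each of the 4 comparisons; points are rats and bars the mean and SD of 5 arrays. Psma2 and Psmb7 lie lower on every ipsilateral array of both SNL comparisons, and Psmb4 and Psmb7 lie higher on every ipsilateral array of sham L5.

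The immunoproteasome and PA28 genes went the other way in the ligated L5 DRG. Of these 5 genes, Psmb8, Psmb9, Psme1 and Psme2 rose in SNL L5 and Psmb10 fell, while none was called in SNL L4. In sham rats Psme1 and Psme2 fell at L4 and Psmb10 and Psme1 at L5, and none rose. The calls of Psmb8, Psmb9, Psmb10 and Psme1 in SNL L5 were kept after quantile normalization and with equal array medians. Psmb8, Psmb9 and Psmb10 were among the 4 dimmest members.

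Psmb9, which takes the place of the caspase-like subunit, read 82.3, 63.6, 78.4, 69.3 and 62.7 on the ipsilateral arrays, against 41.5, 50.01, 28.6, 29.2 and 41.3 on the contralateral arrays in SNL L5. The ipsilateral arrays were all higher, and the rise was 0.70 ± 0.12 on the log2 scale (SE, adjusted p = 9.32e-05). In SNL L4 it read 33.8, 41.8, 65.6, 47.04 and 44.8 on the ipsilateral arrays, against 54.1, 45.02, 56.9, 39.9 and 59.6 on the contralateral arrays, with overlapping sides and a difference of -0.11 ± 0.16 (SE, adjusted p = 0.7). Its signals at sham L4 were 37.3, 42.99, 33.9, 34.04 and 20.9 on the ipsilateral arrays, against 31.3, 36.1, 40.7, 38.5 and 31.7 on the contralateral arrays. At sham L5 they were 37.9, 34.96, 31.2, 38.9 and 28.4 on the ipsilateral arrays, against 33.01, 34.4, 36.7, 45.9 and 31.98 on the contralateral arrays. Both sham comparisons overlapped, at -0.07 ± 0.13 (SE, adjusted p = 0.74) and -0.06 ± 0.09 (SE, adjusted p = 0.61).

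Psmb8, which takes the place of Psmb5, read 109, 79.5, 72.1, 89.9 and 89.8 on the ipsilateral arrays, against 57.9, 64.9, 51.9, 66.2 and 39.7 on the contralateral arrays in SNL L5. No contralateral array reached an ipsilateral one, and it rose by 0.53 ± 0.11 on the log2 scale (SE, adjusted p = 0.000977). In SNL L4 Psmb8 read 75.5, 48.6, 60.7, 67.6 and 32.8 on the ipsilateral arrays, against 56.9, 49.3, 38.4, 52.4 and 57.1 on the contralateral arrays, a difference of 0.10 ± 0.17 (SE, adjusted p = 0.74). At sham L4 the signals were 37.8, 47.4, 40.9, 54.3 and 67.2 on the ipsilateral arrays, against 29.8, 60.5, 59.4, 46.04 and 41.6 on the contralateral arrays. At sham L5 they were 46.6, 37.2, 38.1, 30.98 and 42.02 on the ipsilateral arrays, against 36.99, 38.1, 40.2, 45.5 and 45.8 on the contralateral arrays. The sides overlapped in these 3 comparisons, and the sham differences were 0.05 ± 0.15 (SE, adjusted p = 0.82) at L4 and -0.06 ± 0.09 (SE, adjusted p = 0.57) at L5.

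Psmb10, which takes the place of Psmb7, read 64.7, 68.7, 67.96, 58.0 and 56.6 on the ipsilateral arrays, against 71.97, 99.02, 80.7, 88.1 and 77.9 on the contralateral arrays in SNL L5. It ran against its partners, with every ipsilateral array lower and a fall of 0.33 ± 0.09 on the log2 scale (SE, adjusted p = 0.0053). In SNL L4 it read 76.5, 72.04, 93.5, 74.9 and 88.2 on the ipsilateral arrays, against 60.99, 45.3, 72.6, 61.8 and 84.3 on the contralateral arrays. These sides overlapped, at 0.27 ± 0.14 (SE, adjusted p = 0.19). At sham L4 Psmb10 read 69.97, 63.8, 77.8, 72.3 and 81.9 on the ipsilateral arrays, against 74.99, 101, 81.1, 99.6 and 98.3 on the contralateral arrays, with overlap and -0.26 ± 0.09 (SE, adjusted p = 0.05). At sham L5 it read 87.9, 80.3, 80.04, 79.9 and 66.6 on the ipsilateral arrays, against 89.7, 95.6, 92.02, 102 and 89.8 on the contralateral arrays, without overlap. The fall there was 0.21 ± 0.07 on the log2 scale (SE, adjusted p = 0.018), and was not called after quantile normalization (-0.12).

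Psme1, the alpha subunit of PA28, read 600.3, 585, 631, 606 and 609.7 on the ipsilateral arrays, against 477, 481, 455, 455 and 465 on the contralateral arrays in SNL L5. The lowest ipsilateral signal was well above the highest contralateral one, and the rise was 0.37 ± 0.05 on the log2 scale (SE, adjusted p = 3.52e-06). In SNL L4 it read 289, 269, 249.7, 304 and 315 on the ipsilateral arrays, against 289, 309, 308, 319.6 and 307 on the contralateral arrays. The sides overlapped, at -0.10 ± 0.07 (SE, adjusted p = 0.37). At sham L4 Psme1 read 316, 280.1, 277, 333 and 308 on the ipsilateral arrays, against 373, 352, 385, 371 and 391 on the contralateral arrays. It was lower on every ipsilateral array, and fell by 0.29 ± 0.06 on the log2 scale (SE, adjusted p = 0.0022). At sham L5 it read 378, 383, 386, 395 and 356 on the ipsilateral arrays, against 427, 418, 422, 419 and 417 on the contralateral arrays. Again no arrays overlapped, and the fall was 0.14 ± 0.04 on the log2 scale (SE, adjusted p = 0.013), not called after quantile normalization (-0.08).

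Psme2, the beta subunit of PA28, read 523, 565, 596, 579 and 587 on the ipsilateral arrays, against 452, 517, 556, 536 and 475 on the contralateral arrays in SNL L5. The sides overlapped and the rise was 0.17 ± 0.06 on the log2 scale (SE, adjusted p = 0.032); with equal array medians it was -0.05 and not called, and the call was lost without any 1 of 5 arrays (ipsilateral rats 9, 18 and 48 and contralateral rats 4 and 48), with adjusted p-values up to 0.088 and differences of 0.13 to 0.20. In SNL L4 Psme2 read 433, 439.5, 391, 345 and 387 on the ipsilateral arrays, against 311, 370.5, 428, 318 and 312 on the contralateral arrays. The difference was 0.19 ± 0.09 (SE, adjusted p = 0.15) with overlap, and was called higher after quantile normalization (0.27). At sham L4 it read 386, 335, 377, 334 and 429.5 on the ipsilateral arrays, against 466, 515, 517, 519.7 and 534 on the contralateral arrays. Here the sides were apart, and the fall of 0.44 ± 0.07 on the log2 scale (SE, adjusted p = 0.00021) was the largest of any member in that comparison. At sham L5 it read 492, 474, 465, 481 and 438 on the ipsilateral arrays, against 483, 506, 469, 564 and 480.2 on the contralateral arrays, which overlapped, at -0.09 ± 0.06 (SE, adjusted p = 0.21).

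**Figure D3:**
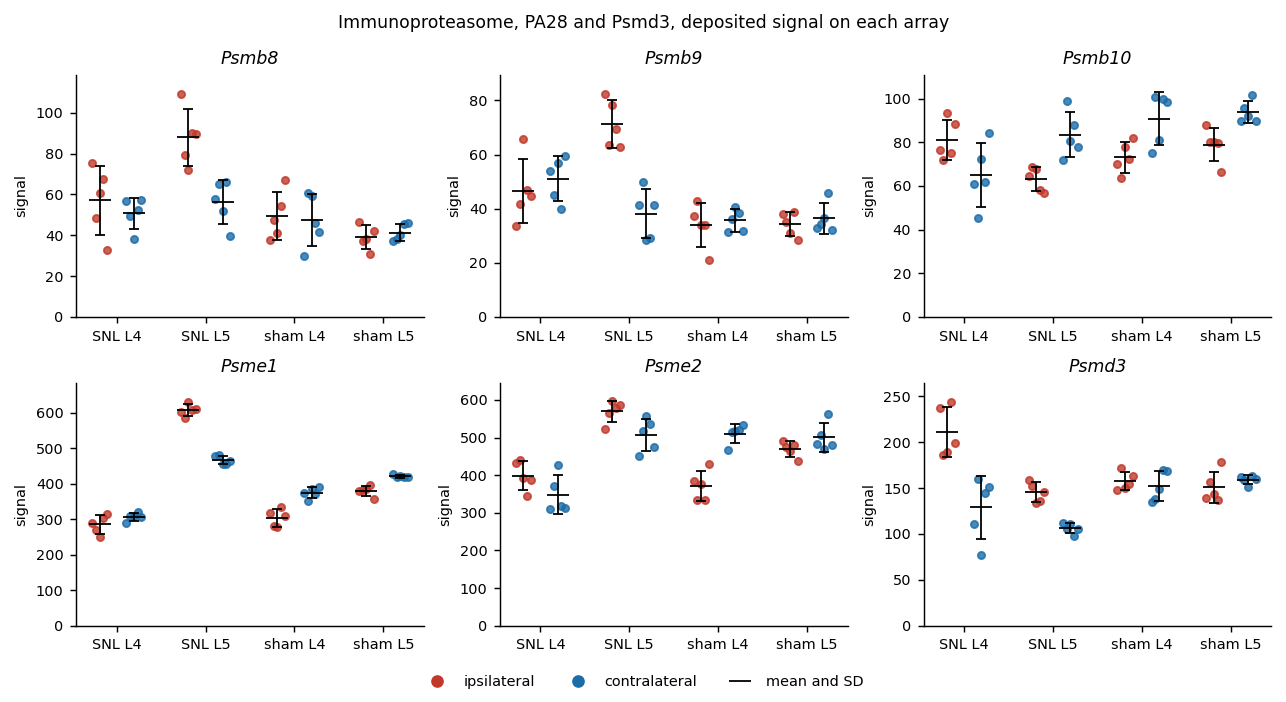
Signal of Psmb8, Psmb9, Psmb10, Psme1, Psme2 and Psmd3 on each array, ipsilateral left of contralateral within each comparison; points are rats and bars the mean and SD of 5 arrays. In SNL L5 Psmb8, Psmb9, Psme1 and Psmd3 are higher and Psmb10 lower on all ipsilateral arrays, and in sham L4 Psme1 and Psme2 are lower on all ipsilateral arrays.

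Promoters of this class are shown for the letters GAAANNGAA, the core of the element bound by interferon regulatory factors, searched on both strands. They lay in 3 of the 5 windows (60%: Psmb8, Psmb10 and Psme2), against 3 of 12 core windows (25%) and 9.5% of all windows. The share was 25% of the 32 members, which include these 5. Of the genes of this class with a match, Psmb8 and Psme2 were higher and Psmb10 lower in SNL L5. Psmb9 and Psme1, also higher there, had no match, and the core genes with a match (Psma4, Psmb2 and Psmb3) were lower there. The stretches with the element in capitals are those of Psmb10 (chr19:50743337-50743385, minus strand) and Psme2 (chr15:33052776-33052824, minus strand). Between element and gene start lie 64 bases in Psmb10 and 44 in Psme2. Further matches of Psmb10 have 58 and 8 bases before the gene start. The match at 58 overlaps the one in capitals and runs into the small letters of its line.
Psmb10: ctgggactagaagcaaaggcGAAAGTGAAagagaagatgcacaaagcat
Psme2: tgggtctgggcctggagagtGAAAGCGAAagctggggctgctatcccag

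Other genes of class I antigen processing and of the interferon response changed in SNL L5. Of 9 measured, 5 rose and none fell there, where 30.3% of all probe sets were higher and 16.8% lower. The genes that rose included Gbp2, an interferon-induced GTPase, at 1.67 and Gbp4 of the same family at 0.92 on the log2 scale. Erap1, which trims peptides, rose by 0.76 and the transcription factor Irf1 by 0.61. In SNL L4 none rose and 1 fell, B2m, the light chain of class I molecules, at -0.42. In sham L4 B2m was higher (0.51) and Gbp2 lower (-0.38), and in sham L5 B2m was higher (0.69) and Erap1 (-0.53), Gbp4 (-0.39) and Gbp2 (-0.31) lower. Neither rise of B2m was called after quantile normalization (-0.05 and 0.06), where the list had none higher and 3 lower at sham L4 and none higher and 6 lower at sham L5. In SNL L5 the list then had 4 higher and 1 lower, B2m (-0.14).

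Beside this result, markers of macrophages and of T and NK cells were among the higher calls and markers of neutrophils among the lower ones. Of 9 macrophage markers 7 were higher and none lower in SNL L5, with a median difference of 1.37, and their summed signal was 859.5 to 965.4 on ipsilateral and 233.7 to 275.1 on contralateral arrays. No macrophage marker was at 0 in SNL L5, the dimmest being Itgam, at a mean of 9.71 ipsilaterally and 6.47 contralaterally, and Cd68 averaged 131.5 and 23.2. The 7 markers of T and NK cells had 4 higher and none lower, with summed signals of 133.9 to 164.4 and 62.8 to 81.1, and only 2 were called after quantile normalization or with equal array medians. None of them was called in SNL L4. At sham L4 3 of the 7 were higher and none lower under each scaling, with sums of 83.1 to 122.3 ipsilaterally and 42.8 to 62.45 contralaterally. At sham L5 3 were higher as deposited and with equal array medians, and 0 after quantile normalization. The sums there were 51.82 to 77.25 and 35.79 to 44.5. Of 3 neutrophil markers 2 were lower and none higher in SNL L5, with sums of 284.7 to 342.6 ipsilaterally and 730 to 769.7 contralaterally. The 7 macrophage calls in SNL L5 stood in number under both other scalings. In SNL L4 the macrophage sums were 358.7 to 467.2 ipsilaterally and 261.1 to 314.9 contralaterally, with 3 markers higher as deposited and 1 under each of the other scalings. In sham rats they were 250 to 304.5 and 271.7 to 309.3 in L4 and 276.2 to 347.9 and 326.2 to 384 in L5, with 1 marker higher and 1 lower at L4 and 2 higher and 5 lower at L5. Their part in the rise of the immunoproteasome genes was not tested.

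In the ATPase ring, whose 6 subunits unfold the substrate, 2 genes rose and none fell in SNL L4, and 1 rose and 2 fell in SNL L5. The mean level over them was 8.98 ± 0.07 ipsilaterally and 8.87 ± 0.07 contralaterally in SNL L4, and 9.02 ± 0.05 and 9.06 ± 0.04 in SNL L5 (log2, SD, n = 5). Psmc4 read 399.6, 409.6, 418, 447 and 376 on the ipsilateral arrays, against 347, 335, 342, 335 and 336 on the contralateral arrays in SNL L4. Every ipsilateral array was higher, a rise of 0.26 ± 0.06 on the log2 scale (SE, adjusted p = 0.0051), which with equal array medians was 0.13 and not called. In SNL L5 its signals were 466, 515, 467, 485 and 461 on the ipsilateral arrays, against 447, 424, 425, 399 and 436 on the contralateral arrays. It rose there by 0.16 ± 0.05 on the log2 scale (SE, adjusted p = 0.014) without overlap, and with equal array medians the value was -0.05. At sham L5 Psmc4 read 573, 518, 478, 459.6 and 499 on the ipsilateral arrays, against 559, 615, 548, 624 and 527 on the contralateral arrays. The sides overlapped and it fell by 0.18 ± 0.06 on the log2 scale (SE, adjusted p = 0.03), where the call was lost without any 1 of 4 arrays (ipsilateral rats 17 and 22 and contralateral rats 14 and 22), with adjusted p-values up to 0.081 and differences of -0.23 to -0.15.

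Psmc5, also of the ATPase ring, read 424, 372, 412, 372 and 346 on the ipsilateral arrays, against 315, 289, 366, 320.2 and 344 on the contralateral arrays in SNL L4. Its sides overlapped, and the rise of 0.23 ± 0.08 on the log2 scale (SE, adjusted p = 0.043) was not firm: the call was lost without any 1 of 8 arrays (ipsilateral rats 4, 8, 9 and 18 and contralateral rats 4, 8, 18 and 48), with adjusted p-values up to 0.12 and differences of 0.19 to 0.27, and with equal array medians it was 0.09 and not called. In SNL L5 Psmc5 fell by 0.15 ± 0.06 on the log2 scale (SE, adjusted p = 0.038), where the call was lost without any 1 of 5 arrays (ipsilateral rats 4, 8 and 48 and contralateral rats 8 and 9), with adjusted p-values up to 0.11 and differences of -0.18 to -0.12. Psmc1 fell by 0.26 ± 0.07 on the log2 scale (SE, adjusted p = 0.0037) in SNL L5, and Psmc2, Psmc3 and Psmc6 were not called in either SNL comparison, with differences of 0.14, 0.15 and -0.15 in SNL L4 and 0.08, 0.02 and -0.08 in SNL L5.

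Among the 4 genes of the base outside the ATPase ring, Psmd4, a receptor for ubiquitin chains, read 224, 252, 226, 186 and 196 on the ipsilateral arrays, against 144, 158, 192, 160.2 and 132 on the contralateral arrays in SNL L4. Only the lowest ipsilateral array fell within the contralateral range, and the gene rose by 0.43 ± 0.10 on the log2 scale (SE, adjusted p = 0.006); with equal array medians the value was 0.29 and not called. In SNL L5 Psmd4 read 121, 106, 125, 162 and 104 on the ipsilateral arrays, against 138, 128, 135, 137 and 119 on the contralateral arrays. There 1 ipsilateral array was above all others and the remaining 4 lay within or below the contralateral range, at -0.09 ± 0.09 (SE, adjusted p = 0.45). At sham L4 it read 139, 167, 149, 155 and 145 on the ipsilateral arrays, against 105, 132, 133, 123 and 124 on the contralateral arrays, and rose by 0.26 ± 0.08 on the log2 scale (SE, adjusted p = 0.017) without overlap, against 0.06, not called, with equal array medians.

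Psmd1, the scaffold of the base, read 467, 468, 499.9, 443 and 486 on the ipsilateral arrays, against 419, 425, 440, 422 and 439.5 on the contralateral arrays in SNL L4. The sides did not overlap, and the difference of 0.13 ± 0.06 (SE, adjusted p = 0.11) missed the threshold, while it was called higher after quantile normalization (0.23). In SNL L5 Psmd1 read 416, 434, 449.6, 459 and 408 on the ipsilateral arrays, against 502, 568, 537, 516 and 532 on the contralateral arrays. Here all ipsilateral arrays were lower, a fall of 0.28 ± 0.05 on the log2 scale (SE, adjusted p = 0.000229). Psmd2, the other scaffold, was not called in either, at -0.15 ± 0.12 (SE, adjusted p = 0.43) in SNL L4 and 0.10 ± 0.05 (SE, adjusted p = 0.15) in SNL L5. Psmd9, a chaperone of base assembly, was called at sham L5 and in no other comparison of sides. Its probe sets went opposite ways there, with the dimmer one called higher (0.45). The brighter one read 72.8, 78.8, 76.1, 76.6 and 82.5 on the ipsilateral arrays, against 91.6, 102, 89.3, 90.0 and 81.8 on the contralateral arrays. Its sides overlapped by 1 ipsilateral array, and it fell by 0.20 ± 0.06 on the log2 scale (SE, adjusted p = 0.019); without the array of contralateral rat 14 the adjusted p was 0.06.

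The 8 lid genes had 2 rises and 1 fall in SNL L4 and 1 rise and 4 falls in SNL L5. Psmd3 had the largest rise of any member in SNL L4, where it read 237, 186, 189, 243 and 199 on the ipsilateral arrays, against 111, 160.3, 76.7, 145 and 151 on the contralateral arrays. All ipsilateral arrays were higher, though 1 contralateral array lay far below its group, and the rise was 0.68 ± 0.15 on the log2 scale (SE, adjusted p = 0.003). In SNL L5 it read 159, 152, 134, 136 and 146 on the ipsilateral arrays, against 112, 105, 110.3, 98.2 and 106 on the contralateral arrays. The sides were again apart, with a rise of 0.40 ± 0.07 on the log2 scale (SE, adjusted p = 7.78e-05). Psmd3 kept both calls after quantile normalization and with equal array medians. At sham L4 it read 148, 172, 149.7, 155 and 163 on the ipsilateral arrays, against 135, 138, 149, 169 and 168 on the contralateral arrays. At sham L5 it read 139, 157, 143, 137 and 178 on the ipsilateral arrays, against 162, 158, 152, 163 and 159.6 on the contralateral arrays. Both overlapped, at 0.05 ± 0.08 (SE, adjusted p = 0.65) and -0.08 ± 0.07 (SE, adjusted p = 0.36).

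Psmd12 read 769, 631, 768, 706 and 676 on the ipsilateral arrays, against 667, 619.6, 611, 579 and 618 on the contralateral arrays in SNL L4. The sides overlapped, and of the rise of 0.19 ± 0.06 on the log2 scale (SE, adjusted p = 0.046) the call was lost without any 1 of 7 arrays (ipsilateral rats 4, 9 and 18 and contralateral rats 8, 9, 18 and 48), with adjusted p-values up to 0.11 and differences of 0.16 to 0.23; with equal array medians it was 0.06 and not called. At sham L4 Psmd12 read 997, 970.3, 1018, 948 and 974 on the ipsilateral arrays, against 924, 769, 833, 916 and 855 on the contralateral arrays. It rose there by 0.19 ± 0.05 on the log2 scale (SE, adjusted p = 0.017) with no overlap, a call not kept after quantile normalization (0.11). Psmd11 at sham L4 read 836, 860, 838, 839 and 710 on the ipsilateral arrays, against 752, 652, 720.3, 722 and 676 on the contralateral arrays. Only the ipsilateral array of rat 23 lay within the contralateral range, and the rise was 0.21 ± 0.06 on the log2 scale (SE, adjusted p = 0.018), not called after quantile normalization (0.16).

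Psmd8, a further lid subunit, fell by 0.48 ± 0.07 on the log2 scale (SE, adjusted p = 7.09e-05) in SNL L4, where its signals were 179, 181, 183, 177 and 192 on the ipsilateral arrays, against 244, 252, 284, 262 and 265 on the contralateral arrays. No ipsilateral array reached a contralateral one. It also fell in SNL L5, by 0.39 ± 0.06 on the log2 scale (SE, adjusted p = 7.17e-05), without overlap. Psmd13 fell by 0.31 ± 0.06 on the log2 scale (SE, adjusted p = 0.000154) and Psmd6 by 0.22 ± 0.06 on the log2 scale (SE, adjusted p = 0.0067) in SNL L5, where Psmd14, the deubiquitinase of the lid, fell by 0.17 ± 0.05 on the log2 scale (SE, adjusted p = 0.019); without the array of contralateral rat 18 the adjusted p was 0.06. Psmd7 was not called in either SNL comparison, at 0.08 ± 0.07 (SE, adjusted p = 0.49) in SNL L4 and -0.09 ± 0.07 (SE, adjusted p = 0.3) in SNL L5. In sham rats the regulatory particle had 3 rises and 1 fall at L4 and 1 rise and 8 falls at L5, and those 8 falls became 5 without the array of ipsilateral rat 17 or 22 and 4 without that of contralateral rat 14. After quantile normalization these counts were 1 higher and 2 lower at L4 and 1 and 6 at L5, and with equal array medians 0 and 13 at L4 and 0 and 17 at L5.

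**Figure D4:**
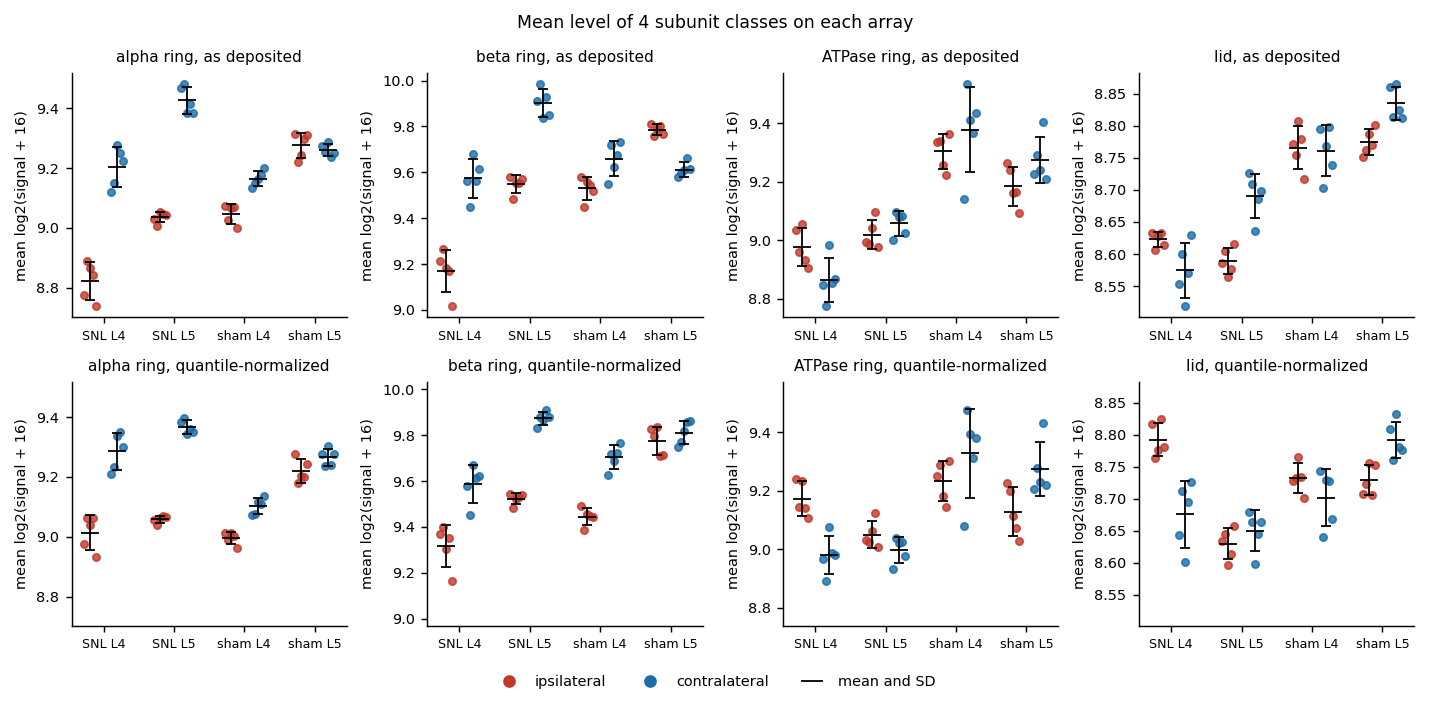
Mean log2(signal + 16) over the genes of the alpha ring, the beta ring, the ATPase ring and the lid on each array, as deposited and after quantile normalization, ipsilateral left of contralateral in each comparison; points are arrays and bars the mean of 5. As deposited, the alpha ring averaged 8.82 against 9.20 in SNL L4 and 9.04 against 9.43 in SNL L5, whereas the lid averaged 8.62 against 8.57 and 8.59 against 8.69.

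A total of 8 members had further, dimmer probe sets, and these did not always follow the brightest one. Both dimmer probe sets of Psmd14 were called lower in SNL L4 (-0.59 and -0.39), in SNL L5 (-0.76 and -0.56) and in sham L4 (-0.34 and -0.31), where its brightest one was at 0.07, -0.17 and 0.02. A dim second probe set of Psme1 fell in SNL L5 (-0.59) and rose in sham L5 (0.56), against 0.37 and -0.14 on the bright one. The dimmer probe set of Psmd9 was called higher in sham L5 (0.45), against -0.20, called lower, on the bright one. After quantile normalization the dimmer one was at 0.15 and not called. In sham L4 a second probe set of Psmc6 was called higher (0.14), against -0.19, called lower, on the brightest one. In SNL L5 a second probe set of Psmc6 was higher (0.24), one of Psmd7 lower (-0.32) and one of Psmd11 higher (0.21), none of which was called on the brightest probe set. The 2 dimmer probe sets of Psmb5 and that of Psmc4 were not called in any comparison of sides.

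Whether the side difference itself differed between SNL and sham rats was tested with an interaction term over 20 arrays. At L5 these arrays came from both array series, so cohort and series cannot be told apart there. At L4 6 members had a difference more positive in SNL than in sham rats and 8 one more negative, where 14% of all probe sets were called (5.72% and 8.28%). At L5 6 were more positive and 15 more negative, where 43.2% were called (20.9% and 22.3%). Core genes gave 7 of the negative calls at L4 and 11 at L5, with none positive, and their median was -0.39 at L4 and -0.51 at L5. Among all probe sets with a mean of 8 or more, 10.7% were called positive and 32% negative at L4, and 24.4% and 46.9% at L5. The medians of these bright probe sets were -0.12 at L4 and -0.17 at L5. After quantile normalization, where 5.14% of all probe sets were called positive and 7.29% negative at L4 and 20.1% and 20.4% at L5, the core had 1 positive and 5 negative calls at L4 and 0 and 11 at L5. The shares among probe sets with a mean of 8 or more were then 14.2% and 24.1% at L4 and 28.9% and 38.3% at L5. The regulatory particle had 4 positive and 1 negative at L4, and 2 positive and 4 negative at L5, which became 7 and 2 after quantile normalization. Its 4 negative calls at L5 became 1 without the array of SNL ipsilateral rat 8 and 2 without that of sham ipsilateral rat 1 or sham contralateral rat 23.

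As deposited, the largest negative values were the same 3 genes in both segments. At L4 they were -0.75 ± 0.07 (SE, adjusted p = 3.5e-08) for Psmb7, -0.74 ± 0.07 (SE, adjusted p = 7.99e-09) for Psmb4 and -0.69 ± 0.09 (SE, adjusted p = 2.28e-06) for Psma2. At L5 they were -0.82 ± 0.07 (SE, adjusted p = 1.01e-09) for Psmb7, -0.72 ± 0.08 (SE, adjusted p = 4.73e-08) for Psma2 and -0.70 ± 0.09 (SE, adjusted p = 3.99e-07) for Psmb4. As deposited these 3 genes were lower in SNL and higher in sham L5 DRGs on the side of the operation, and after quantile normalization, under which none of the 3 was called higher in sham L5, the values were -0.31, -0.23 and -0.37 at L4 and -0.47, -0.47 and -0.43 at L5, all still called. The largest negative values were then Psmd8 (-0.51), Psma3 (-0.49) and Psma1 (-0.46) at L4, and Psma3 (-0.65) at L5. On the positive side, at L4, stood Psme2 at 0.64 ± 0.12 (SE, adjusted p = 0.00039), Psmd3 at 0.63 ± 0.18 (SE, adjusted p = 0.017) and Psmb10 at 0.53 ± 0.16 (SE, adjusted p = 0.029). Neither Psme2 nor Psmb10 was called in SNL L4, and the Psmb10 value was not called after quantile normalization (0.46); the call was lost without any 1 of 6 arrays (SNL L4 ipsilateral rat 9, SNL L4 contralateral rat 8, sham L4 ipsilateral rat 14 and sham L4 contralateral rats 14, 22 and 23), with adjusted p-values up to 0.061 and differences of 0.44 to 0.62. At L5 the largest positive values were Psmb9 at 0.76 ± 0.15 (SE, adjusted p = 0.00019), Psmb8 at 0.60 ± 0.15 (SE, adjusted p = 0.002) and Psme1 at 0.51 ± 0.06 (SE, adjusted p = 5.66e-08).

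Between the segments of SNL rats, the ligated L5 minus the neighbouring L4 DRG, 6 members had a more positive and 11 a more negative side difference at L5, where 19.2% of all probe sets were called (11.1% and 8.08%). The segments of SNL rats also lay in different array series. After quantile normalization 3 were more positive and 9 more negative (10.1% and 8.32% of all probe sets). Among probe sets with a mean of 8 or more the shares were 25.4% and 23% as deposited, and 26.7% and 22.5% after quantile normalization. The largest positive values were Psmb9 at 0.81 ± 0.19 (SE, adjusted p = 0.0031), Psme1 at 0.47 ± 0.08 (SE, adjusted p = 7.28e-05) and Psmb4 at 0.40 ± 0.09 (SE, adjusted p = 0.0015), of which Psmb4 was not called after quantile normalization (0.11). The largest negative values were Psmb10 at -0.60 ± 0.16 (SE, adjusted p = 0.0081), Psmd4 at -0.52 ± 0.14 (SE, adjusted p = 0.011) and Psmd1 at -0.42 ± 0.07 (SE, adjusted p = 9.05e-05). Of the core, 4 were more positive and 3 more negative, 3 becoming 1 without the ipsilateral L5 array of rat 4, and of the regulatory particle 0 and 7. The count of 7 became 4 when rat 9 was left out of the ipsilateral L4 arrays or rat 8, 9 or 48 out of the ipsilateral L5 arrays, and 3 without the contralateral L5 array of rat 18. Across the 36 members the side differences of SNL L4 and SNL L5 correlated at r = 0.55 (0.52 after quantile normalization, 0.45 over all probe sets), as a description across genes, which are not independent replicates.

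Other genes of proteasome function, from lists drawn up beside the subunits, moved in both directions. Of all probe sets 10.1% were higher and 9.01% lower in SNL L4, and 30.3% and 16.8% in SNL L5. Among those with a mean of 8 or more these shares were 15.5% and 36% in SNL L4 and 29.8% and 45.4% in SNL L5. In sham rats 17.3% and 9.85% of all probe sets were called at L4 and 31.1% and 19.3% at L5. Of 16 assembly factors, further subunits and partners of the proteasome, 1 rose and 6 fell in SNL L4, with Ecpas, a proteasome adaptor, at 0.54 on the log2 scale, and Psmd10, a base chaperone, at -0.46, the deubiquitinase Usp14 at -0.45 and the assembly chaperone Psmg2 at -0.37. In SNL L5 3 rose and 8 fell, among them the chaperones Psmg3 (-0.82) and Psmd5 (0.69), the deubiquitinase Uchl5 (-0.59) and the ligase Ube3c (-0.42). In sham rats 3 rose and 8 fell at L4 and 3 rose and 6 fell at L5, and Usp14 was higher in both (0.50 and 0.54). These counts moved with the scaling. With equal array medians they were 1 higher and 8 lower in SNL L4, 1 and 10 in SNL L5, 1 and 12 at sham L4 and 2 and 14 at sham L5, and after quantile normalization 2 and 5, 3 and 8, 3 and 4, and 1 and 4, while Usp14 was called higher in sham rats under both.

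Of 21 genes of ubiquitin supply, conjugation and delivery, 3 rose and 8 fell in SNL L4, and 7 rose and 10 fell in SNL L5. Of all probe sets 10.1% were higher and 9.01% lower in SNL L4, and 30.3% and 16.8% in SNL L5. Among those with a mean of 8 or more the shares were 15.5% and 36%, and 29.8% and 45.4%. The largest changes in the list were falls of the conjugating enzymes Ube2l3 (-0.94 in SNL L4 and -0.72 in SNL L5) and Ube2b (-0.89 and -0.61), and of Nploc4, a cofactor of the Vcp segregase (-0.82 and -1.04). Nfe2l1, the transcription factor that raises proteasome genes when degradation is blocked, was lower in both (-0.54 and -0.58), and the ubiquitin-activating enzyme Uba6 fell in SNL L5 (-0.69). In sham rats 4 rose and 6 fell at L4 and 7 rose and 7 fell at L5, with Uchl1, a neuronal deubiquitinase and one of the sensory neuron markers, higher in both (0.55 and 0.81). Nfe2l1 was also lower in sham L4 (-0.40). After quantile normalization Uchl1 was not called at sham L4, and the list had 3 higher and 7 lower in SNL L4, 7 and 11 in SNL L5, 2 and 4 at sham L4 and 4 and 5 at sham L5. With equal array medians the counts were 0 and 9, 1 and 13, 1 and 13, and 1 and 14.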

How the data were processed

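Expression was measured in 40 DRGs, 1 array each, of 5 SNL and 5 sham rats. The values deposited by the authors are linear intensity signals of the MAS5 method (its version was not found in the paper or labels), scaled to a common trimmed mean per array. All 40 columns were used, and precision is limited by the number of arrays. Signals were transformed to log2(signal + 16), and 57 control probe sets were left out. For each comparison of sides, a linear model with moderated variances and an intensity trend (limma 3.58.1, R 4.3.3) used the 10 arrays concerned, and 20 for a difference between comparisons, with Benjamini-Hochberg adjustment over 31042 probe sets. The fits were tested on simulated data. Gene symbols came from the platform annotation.

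Members, lists and tests were chosen with earlier results of these data known. Values on every array are given for the 5 largest rises and falls called in each SNL comparison, the 3 largest in each sham comparison and difference, and all immunoproteasome and PA28 genes. Up to 4 called genes per list and comparison are named otherwise. Psmd8 was added to these after its values were seen.

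The methods name a t-test that is not said to be paired, so the rat was not a term. The labelled rat numbers pair the DRGs, as each rat gave all 4 of its own. Between both sides of 1 rat, the correlation of deviations from the group mean ranged from -0.01 to 0.04 at SNL L4, from -0.06 to 0.04 at SNL L5, from -0.05 to 0.10 at sham L4 and from -0.14 to 0.01 at sham L5. Alternatives were quantile normalization, equal array medians, offsets of 1 and 64, leaving out dim probe sets, no intensity trend, the rat as replicate block, 1 fit of 8 groups, an adjusted p under 0.01, the methods' t-test, leaving out each array, other probe sets of a gene and current symbols.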

Additional observations from a re-analysis of the deposited data

Results flagged for a closer look

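Of 288 groups of 5 arrays, 36 members in 8 groups, 13 held 1 array far from the other 4, where chance gives about 1 in 20. On the SNL arrays these were Psma1 at 571 on contralateral L5 of rat 9 (others 627 to 647), Psmd6 at 979 on contralateral L5 of rat 8 (750 to 802), Psma7 at 514 on contralateral L4 of rat 9 (437 to 449) and Psmb7 at 1440 on contralateral L4 of rat 18 (1500 to 1510). At sham L4 they were Psma6 at 1130 (1200 to 1220) and Psmd11 at 710 (836 to 860) on the ipsilateral array of rat 23, Psmd13 at 270 on contralateral rat 17 (284 to 286) and Psme2 at 466 on contralateral rat 1 (515 to 534). At sham L5 all came from rat 22: Psmb5 at 801 on its ipsilateral array (884 to 904) and, on its contralateral array, Psmb5 at 772 (800 to 809), Psma3 at 353 (440 to 455), Psmb3 at 1060 (907 to 943) and Psmd12 at 764 (862 to 893).

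A total of 52 side differences of members differed between cohorts or segments in an interaction test of limma (adjusted p under 0.05 over all probe sets). The values are differences of log2 ratios. At L4, SNL minus sham rats, they were positive for Psmb10 (0.53), Psmc4 (0.31), Psmc5 (0.43), Psmd1 (0.27), Psmd3 (0.63) and Psme2 (0.64), and negative for Psma1 (-0.52), Psma2 (-0.69), Psma3 (-0.39), Psma6 (-0.39), Psmb1 (-0.44), Psmb4 (-0.74), Psmb7 (-0.75) and Psmd8 (-0.34). At L5, SNL minus sham rats, they were positive for Psmb8 (0.60), Psmb9 (0.76), Psmc4 (0.34), Psmd3 (0.47), Psme1 (0.51) and Psme2 (0.25), and negative for Psma1 (-0.34), Psma2 (-0.72), Psma3 (-0.69), Psma4 (-0.27), Psma5 (-0.27), Psma6 (-0.53), Psmb1 (-0.51), Psmb3 (-0.42), Psmb4 (-0.70), Psmb5 (-0.60), Psmb7 (-0.82), Psmc1 (-0.24), Psmd8 (-0.21), Psmd11 (-0.22) and Psmd13 (-0.19). For SNL L5 minus SNL L4 they were positive for Psma1 (0.35), Psma2 (0.34), Psmb1 (0.32), Psmb4 (0.40), Psmb9 (0.81) and Psme1 (0.47), and negative for Psma3 (-0.31), Psma5 (-0.30), Psmb5 (-0.28), Psmb10 (-0.60), Psmc1 (-0.30), Psmc5 (-0.38), Psmd1 (-0.42), Psmd4 (-0.52), Psmd12 (-0.24), Psmd13 (-0.27) and Psmd14 (-0.23). After quantile normalization Psma6 (-0.04), Psmb1 (-0.18) and Psmb10 (0.46) were not called at L4. At L5 Psmb3 (-0.09), Psmc1 (-0.14) and Psmd11 (-0.07) were not called. For SNL L5 minus SNL L4, Psma2, Psma3, Psmb1, Psmb4, Psmd13 and Psmd14 were not called. Many calls were lost without any 1 of several of the 20 arrays. These arrays were most for Psmd1 at L4 (16), Psmc1 at L5 (12), and Psmd14 (15) and Psma3 (11) between segments.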

How the results depend on the processing

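The counts of members called were within 1.5 times of those given under most alternatives. Of 16 members called in SNL L4, 10 passed the methods' t-test at a p under 0.001, and 10 on linear signals. Of 26 in SNL L5, 16 and 15 did. In sham L4, where 12 were called, 26 were with equal array medians (8 of the 12 and 18 others), 5 without the intensity trend, 3 at an adjusted p under 0.01, and 2 and 2 by the t-test at a p under 0.001 on log2 and linear signals. In sham L5, where 17 were called, 9 were after quantile normalization (4 of the 17 in the same direction, 1 in the opposite and 4 others), 32 with equal array medians (11 in the same direction, 2 in the opposite and 19 others), 11 in the fit of 8 groups, 8 at an adjusted p under 0.01, and 6 and 6 by that t-test. For SNL minus sham at L4, 9 of 14 remained at an adjusted p under 0.01, and for SNL L5 minus SNL L4, 8 of 17 did, with 10 without the trend. Leaving out 1 array gave 12 to 15 in SNL L4, 23 to 25 in SNL L5, 8 to 19 in sham L4 (19 without contralateral rat 1), 12 to 17 in sham L5, 11 to 16 for SNL minus sham at L4, 18 to 21 at L5 and 12 to 15 for SNL L5 minus SNL L4. With the rat as replicate block 15, 26, 13 and 13 members were called in SNL L4, SNL L5, sham L4 and sham L5, and 15, 20 and 16 in the differences. The block ended the calls of Psmb5 in SNL L4, of Psmb5, Psmc5, Psmc6 and Psmd13 in sham L5, of Psmd13 for SNL minus sham at L5 and of Psmd14 for SNL L5 minus SNL L4.

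Directions turned with scaling for single genes. With equal array medians these were Psmc3 (-0.19), Psmc4 (-0.048), Psmd11 (-0.20) and Psme2 (-0.046) in SNL L5, Psmb4 (-0.080), Psmd11 (-0.020), Psmd12 (-0.038) and Psmd14 (-0.20) in sham L4, and Psma1 (-0.28), Psma2 (-0.072), Psma6 (-0.13), Psmb1 (-0.12), Psmb3 (-0.29), Psmb5 (-0.18), Psmb7 (-0.018), Psmc2 (-0.21), Psmd11 (-0.072) and Psmd14 (-0.30) in sham L5. After quantile normalization they were Psmb4 (-0.19) and Psmb7 (-0.16) in sham L4, Psma6 (-0.17), Psmb1 (-0.015), Psmb3 (-0.24), Psmb5 (-0.016), Psmb7 (-0.12) and Psmc2 (-0.25) in sham L5, and Psmc2 (0.34) and Psmd6 (0.27) for SNL minus sham at L5. The cause was not tested. The limits are 5 rats a group, array medians that differ between sides in the MAS5 signals, probe sets whose values differ within a gene, and RNA of whole ganglia, so that cell makeup and RNA quality cannot be told apart from the side. Nor can the order of the array titles be told apart from the side.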
